A study of Mus musculus with 16 samples.

Results

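The genes described here are those of the metallothioneins Mt1 and Mt2, of the ferritin heavy chain, Fth1, and of the transferrin receptor, Tfrc. They were found as the probes whose platform annotation gives one of these symbols alone, which gave 4 of 7114 named genes and 6 of 15247 probes, a single probe each for Mt1, Mt2 and Fth1 and 3 probes for Tfrc. The genes were picked for their difference between the cell types on these same arrays, so that this difference is described below without a test and supports nothing.

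RNA of mouse cells was measured on 16 two-colour arrays, 8 of the cell type M833 and 8 of the cell type WT. By the title the study concerned mutations of Met, a receptor tyrosine kinase, in MEFs, which commonly stands for mouse embryonic fibroblasts. The labels give neither the allele behind M833 nor a treatment, age or strain for either cell type. Each array set total RNA of the cells against a common reference RNA of unstated make-up, and in each cell type 4 arrays carried the cells in Cy5 and 4 in Cy3. Values are log2 ratios of cells to reference, a direction that the titles make likely but that no label states, so that 0 means equal to the reference and a difference of 1 is 2-fold.

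Metallothioneins are small cysteine-rich proteins of the cytosol that bind zinc, copper and cadmium, and their genes are switched on by zinc through the transcription factor MTF1 and also by glucocorticoids and oxidative stress. Ferritin is a hollow shell of heavy and light chains that stores iron, and its heavy chain oxidises the iron on entry. The transferrin receptor carries iron-loaded transferrin into the cell. When iron is scarce, iron regulatory proteins bind hairpins in both transcripts, which blocks translation of ferritin RNA and protects the RNA of the receptor from decay.

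In the M833 cells the RNA of both metallothioneins and of the ferritin heavy chain lay below that of WT cells, by 1.42-fold for Mt1, 1.48-fold for Mt2 and 1.33-fold for Fth1. Of the 3 Tfrc probes, 2 lay above WT in M833, by 1.58-fold and 1.69-fold, and the third lay slightly below. These were modest differences on a background of many, since limma with dye orientation in the model called 26.6% of all probes different between the cell types at an adjusted p under 0.05, 10.9% higher and 15.8% lower in M833. By the same call 3 member probes were lower in M833 and 2 higher, and nothing is read from that count because the genes were chosen on this contrast. In size, 0.958% of all probes differed more than Tfrc probe 208872, 1.4% more than probe 208220 and 21.4% more than probe 205642. For Mt2, Mt1 and Fth1 the shares were 2.33%, 3.22% and 5.5%. These shares follow from the same choice of genes.

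The arrays of a cell type were not alike. The WT arrays fell into a set of replicates 1, 2, 5 and 6 and a set of replicates 3, 4, 7 and 8, each with 2 arrays of either dye orientation, and the M833 replicates with those numbers also split, more narrowly for Fth1 and for Tfrc probes 208220 and 208872 and as widely or more for the others. Replicates were numbered in series order, so that the numbers pair nothing across cell types, and the labels do not say whether a set is a culture, an RNA extract or a day. Nothing says that arrays came from separate cultures, so that errors and p-values reflect array-to-array spread alone, part or all of which may be technical. The design text states colour-swapped replicates but not which arrays are swaps of each other, so that n counts arrays, with swaps among them. Each value below is therefore also given by set. WT replicate 2 also stood apart over all probes, with 49 log2 ratios above 8, and the lowest correlation between any 2 arrays was 0.59 with it and 0.82 without it. Without that array the M833 minus WT differences were -0.53 for Mt1, -0.57 for Mt2, -0.40 for Fth1 and -0.24, 0.60 and 0.72 for Tfrc probes 205642, 208220 and 208872, and 3205 features were called against 3301 with it. M833 replicates 6, 7 and 8, all with cells in Cy3, bore slide numbers of another series that held no WT array. Without these 3 arrays the differences were -0.41 for Mt1, -0.53 for Mt2 and -0.43 for Fth1. For Tfrc probes 205642, 208220 and 208872 they were then -0.36, 0.68 and 0.80. Of the fibroblast markers looked for, 8 were measured, and of these Pdgfrb stood above the reference in both cell types (1.04 in M833 and 1.12 in WT), as did Vim (0.85 in M833 and 1.04 in WT), whereas Dcn (-2.80 and -2.56) and Lum (-2.57 and -2.41) stood well below it in both. Levels relative to the reference were far down for the adult globin gene Hbb-b1, at -7.05 in M833 and -6.90 in WT, and for the albumin gene Alb, at -6.33 in both. These were the lowest of the measured erythroid and hepatocyte genes. The highest were Gata1 among erythroid genes (-0.61 in M833 and -1.16 in WT) and Tdo2 among hepatocyte genes (-0.11 and -0.06).

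Mt1, which encodes metallothionein 1, had log2 ratios with a lowest value of -2.25, a median of -1.59 and a highest value of -1.39 on the M833 arrays, against -1.55, -1.18 and -0.68 on the WT arrays. The ranges overlapped over all arrays and among the arrays with cells in Cy3, and lay apart among those with cells in Cy5, as they did downward for 11.5% of all probes. The M833 minus WT difference was -0.51 ± 0.11 (SE, n = 8 per cell type), with -0.53 on Cy5 arrays and -0.49 on Cy3 arrays. On Cy3 arrays M833 replicates 6, 7 and 8, of the slide number series without WT arrays, were at -1.70, -1.90 and -2.25. M833 replicate 5, the remaining M833 array in Cy3, was at -1.45, within the WT range of that orientation. Without replicates 6, 7 and 8 of M833 the difference was -0.41. Its size depended on the sets: M833 replicates 1, 2, 5 and 6 averaged -1.48 ± 0.15 and replicates 3, 4, 7 and 8 averaged -1.86 ± 0.32, against -1.34 ± 0.19 and -0.98 ± 0.24 for the WT sets with the same numbers (SD, n = 4 each). The closest sets thus differed by -0.14 and the farthest by -0.88. Leaving out 1 set at a time, the difference was -0.33 without WT replicates 3, 4, 7 and 8, -0.32 without M833 replicates 3, 4, 7 and 8, -0.69 without the other WT set and -0.70 without the other M833 set.

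Mt2, which encodes metallothionein 2, was measured more tightly. Its log2 ratios had a lowest value of -2.27, a median of -1.95 and a highest value of -1.68 on the M833 arrays, against -1.66, -1.35 and -1.23 on the WT arrays. The highest M833 array lay just below the lowest WT array, and 2.68% of all probes showed such a separation downward. The difference was -0.57 ± 0.09 (SE, n = 8 per cell type), with -0.61 on Cy5 arrays and -0.52 on Cy3 arrays. Within M833 the sets did not overlap, with replicates 1, 2, 5 and 6 between -1.82 and -1.68 and replicates 3, 4, 7 and 8 between -2.27 and -2.08. The WT sets overlapped, at -1.66 to -1.34 and -1.46 to -1.23. Differences between single sets ran from -0.84 to -0.29, and the difference was -0.77 without M833 replicates 1, 2, 5 and 6 and -0.37 without M833 replicates 3, 4, 7 and 8.

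The pair of metallothionein probes moved together from array to array. With the mean of each dye orientation removed, Mt1 and Mt2 correlated with r = 0.91 over the 16 arrays, and with cell type removed as well r was 0.79. The arrays share a reference, and the labels do not say which of them share an RNA extract, so that r is a description. Transcripts of Mt1 and Mt2 are alike in sequence, and how far each probe also bound the RNA of the other gene was not tested.

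**Figure D1:**
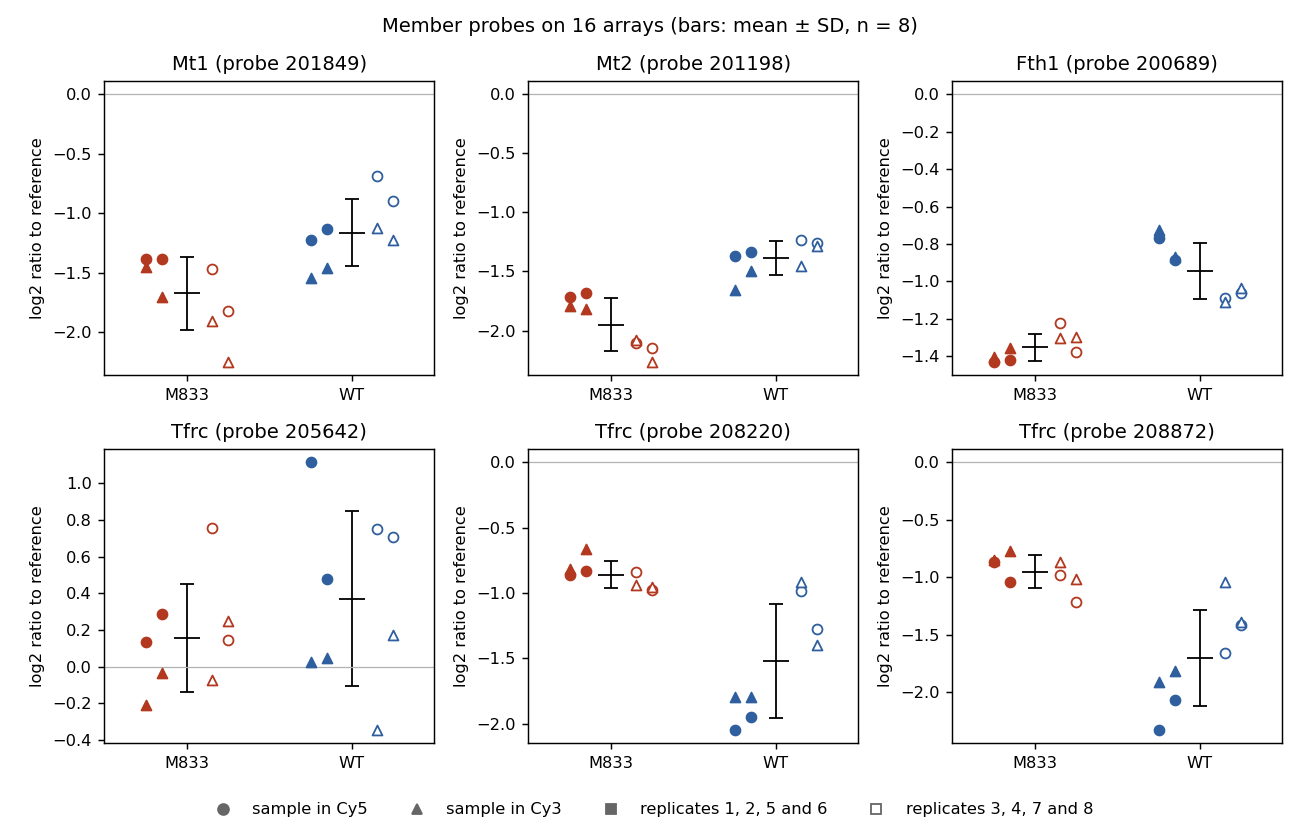
Log2 ratio to the reference of each member probe (vertical axis) on the 8 M833 and the 8 WT arrays (horizontal axis), with circles for cells in Cy5, triangles for cells in Cy3, filled symbols for replicates 1, 2, 5 and 6, open symbols for replicates 3, 4, 7 and 8, and bars for the mean ± SD. Mt2 and Fth1 separate the cell types on all 16 arrays, as 2.68% of all probes do with M833 lower. The WT values of Fth1 and of Tfrc probes 208220 and 208872 fall into 2 levels by set.

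Mt2 and Mt1 lie next to each other in the RefSeq gene table of assembly GRCm38.p6, on the same chromosome and strand, with Mt3 and Mt4 nearby. Because both genes respond to metals through short elements near their starts, the 250 bases before the start that the RefSeq table gives for each are shown, with matches to the core of the metal response element in capitals. The Mt2 stretch is chr8:94172368-94172617 and the Mt1 stretch is chr8:94178839-94179088, both on the plus strand. A shorter Mt1 stretch of 25 bases, chr8:94179091-94179115, lies just after that start and carries another 2 matches.
Mt2: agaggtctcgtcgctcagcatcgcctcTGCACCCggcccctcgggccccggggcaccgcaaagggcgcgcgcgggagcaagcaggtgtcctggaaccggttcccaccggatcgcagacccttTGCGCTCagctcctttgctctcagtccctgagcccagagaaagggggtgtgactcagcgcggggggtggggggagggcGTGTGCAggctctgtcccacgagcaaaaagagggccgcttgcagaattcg
Mt1: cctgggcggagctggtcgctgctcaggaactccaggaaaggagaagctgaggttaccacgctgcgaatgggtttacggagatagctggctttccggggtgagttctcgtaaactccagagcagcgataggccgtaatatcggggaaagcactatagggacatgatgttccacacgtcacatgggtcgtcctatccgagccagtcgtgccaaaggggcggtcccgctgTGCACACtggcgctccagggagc
Mt1, after the start: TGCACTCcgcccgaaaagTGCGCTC

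The core was searched as TGCACNC and TGCGCNC on both strands. In the windows of 300 bases that the table holds, with 50 bases after the start, Mt2 had 4 matches and Mt1 had 3. At least 3 matches were found in 1.97% of all 32851 windows and at least 4 in 0.517%, while 25.7% held at least 1. Each of the 2 windows of Fth1 held 0 matches, and of the 2 windows of Tfrc, which overlap, the upstream one held 2 matches that overlap each other and the other held 0. The core of the antioxidant response element, searched as TGACNNNGC, had 1 match in the Mt2 window and 0 in the windows of the other 3 genes, against 12.4% of all windows with at least 1. These letters were counted as a description, and no binding was measured. The windows follow the starts of the RefSeq table, and whether the cells use those starts was not tested. Elements outside the windows were not counted, so that 0 matches in a window does not mean that a gene lacks the element.

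Fth1, the ferritin heavy chain gene, had the smallest standard error of the 6 probes. Its log2 ratios had a lowest value of -1.43, a median of -1.37 and a highest value of -1.22 on the M833 arrays, against -1.11, -0.96 and -0.73 on the WT arrays. All M833 arrays lay below all WT arrays, as they did for 2.68% of all probes. The difference was -0.41 ± 0.06 (SE, n = 8 per cell type) and was -0.41 on Cy5 arrays and on Cy3 arrays alike. WT split by set without overlap, with replicates 1, 2, 5 and 6 between -0.89 and -0.73 and replicates 3, 4, 7 and 8 between -1.11 and -1.03. Against the first of these WT sets, that is without replicates 3, 4, 7 and 8, the difference was -0.54, and against the second it was -0.28. M833 was below either WT set whichever M833 set was taken, by between 0.23 and 0.59 on the log2 scale.

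Ftl1, which encodes the ferritin light chain, stood on the other side of the reference. The mean of its 5 probes was 1.20 in M833 and 1.23 in WT, and the difference of -0.03 ± 0.12 (SE, n = 8 per cell type) did not pass the test (limma adjusted p = 0.887), with single probes between -0.13 and 0.10. Whether the differences of the heavy and the light chain differ from each other was not tested.

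Macrophages hold much ferritin and recycle iron, and markers of macrophages and other leukocytes differed alongside Fth1. Of 19 such markers 7 were measured, and all 7 were lower in M833, where 15.9% of all features were, with a median difference of -0.86 against -0.03 over all features. The largest were the lysozyme gene Lyz2 (-1.67) and the complement genes C1qb (-1.45) and C1qa (-1.17). The mean ratio of the 7 markers lay between -1.60 and -1.29 over the M833 arrays and between -0.46 and -0.28 over the WT arrays. Within WT it lay between -0.44 and -0.29 on replicates 1, 2, 5 and 6 and between -0.46 and -0.28 on replicates 3, 4, 7 and 8. The part of such cells in the result for Fth1 was not tested. In bulk RNA fewer cells of a type and less RNA per cell cannot be told apart.

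Tfrc, the transferrin receptor gene, had 3 probes that did not give a single picture. Probe 208872 had log2 ratios with a lowest value of -1.22, a median of -0.93 and a highest value of -0.77 on the M833 arrays, against -2.33, -1.74 and -1.04 on the WT arrays. The M833 arrays lay above the WT arrays within each dye orientation, as 4.37% of all probes did, and overlapped when the orientations were pooled. Its difference was 0.75 ± 0.14 (SE, n = 8 per cell type), with 0.85 on Cy5 arrays and 0.66 on Cy3 arrays.

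Probe 208220 behaved much the same. It had a lowest value of -0.97, a median of -0.85 and a highest value of -0.66 on the M833 arrays, against -2.05, -1.60 and -0.91 on the WT arrays. The cell types lay apart on Cy5 arrays, as 7.26% of all probes did upward, and overlapped on Cy3 arrays, where WT replicate 7 reached the M833 range. The difference was 0.66 ± 0.15 (SE, n = 8 per cell type), with 0.69 on Cy5 and 0.63 on Cy3 arrays.

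In both of these probes the spread came from WT. The SD over arrays was 0.10 in M833 and 0.44 in WT for probe 208220, and 0.14 in M833 and 0.41 in WT for probe 208872. The WT sets stood apart, at -2.05 to -1.80 on replicates 1, 2, 5 and 6 and -1.40 to -0.91 on replicates 3, 4, 7 and 8 for probe 208220, and at -2.33 to -1.82 and -1.66 to -1.04 for probe 208872. Without WT replicates 3, 4, 7 and 8 the difference of probe 208220 was 1.04, and with only that set kept in WT it was 0.28. For probe 208872 these values were 1.08 and 0.43. Without WT replicates 1, 2, 5 and 6 the range of probe 208220 still overlapped that of M833, because WT replicate 7, at -0.91, lay among the M833 values.

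Probe 205642 went its own way. It had a lowest value of -0.21, a median of 0.14 and a highest value of 0.76 on the M833 arrays, against -0.35, 0.33 and 1.11 on the WT arrays. The cell types overlapped in both dye orientations. The difference was -0.21 ± 0.12 (SE, n = 8 per cell type), with -0.43 on Cy5 arrays and 0.0085 on Cy3 arrays, although the interaction of dye orientation and cell type was not called (-0.44 ± 0.23, limma adjusted p = 1). This probe read higher with the cells in Cy5 than in Cy3, by 0.57 ± 0.12 (adjusted p = 0.00175), and 42.4% of all probes differed by dye orientation. Among the other members Mt1 did so too, by 0.33 ± 0.11 (adjusted p = 0.0272).

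Probes 208220 and 208872 correlated with r = 0.95 over the 16 arrays after the mean of each dye orientation was removed, and with r = 0.90 after cell type was removed as well. Probe 205642 correlated with them at r = -0.47 and r = -0.54 in the first of these measures, over the same arrays. The mean of all 3 probes gives a Tfrc difference of 0.40, which matches none of them. Which exons or transcripts the 3 probes cover, and whether all bind Tfrc RNA alone, was not tested.

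Cell cycle genes, which rise where more cells divide, differed alongside Tfrc, a gene known to be high in dividing cells. Of 31 measured replication and mitosis genes 26 were higher in M833 and none was lower, where 10% of all features were higher, with a median difference of 0.56. The mean of this list lay between 0.03 and 0.19 over the M833 arrays, between -0.23 and -0.16 on WT replicates 1, 2, 5 and 6 and between -0.62 and -0.55 on WT replicates 3, 4, 7 and 8. Probes 208220 and 208872 were lowest on WT replicates 1, 2, 5 and 6. Red cell precursors also hold much transferrin receptor, and of 6 measured erythroid markers 0 passed the test in limma (2 at an unadjusted p under 0.05), with a median difference of 0.12 and a mean ratio between -3.87 and -3.47 over the M833 arrays and between -4.01 and -3.64 over the WT arrays. With log ratios scaled 3 erythroid markers were called lower, and with each probe tested by itself 1 probe was called higher. The part of either in the Tfrc values was not tested.

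**Figure D2:**
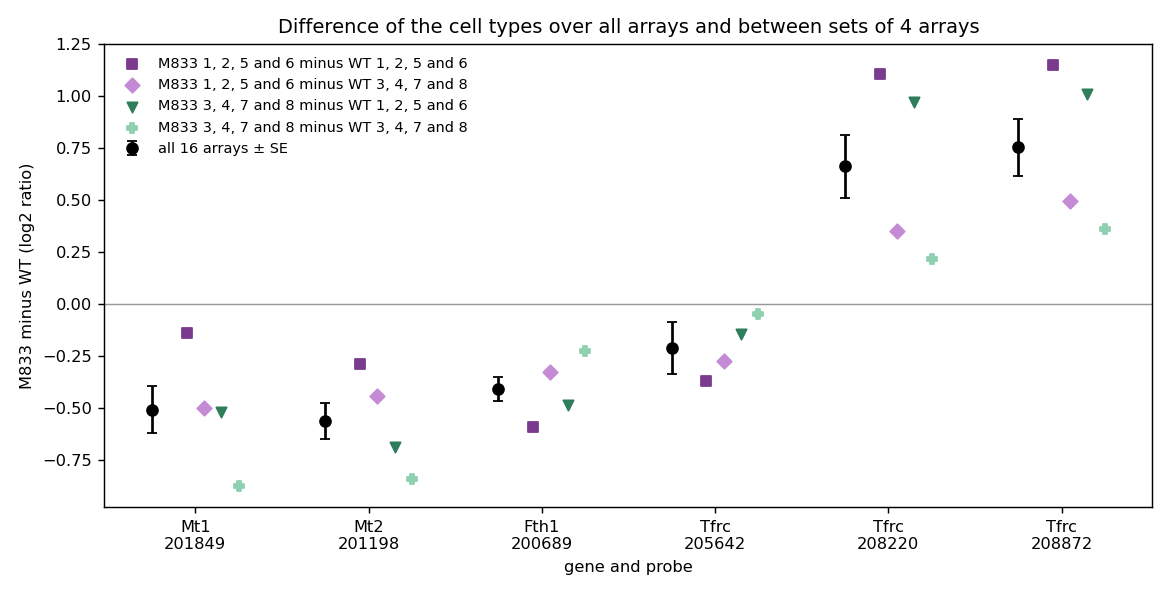
M833 minus WT log2 difference (vertical axis) of each member probe (horizontal axis), over all 16 arrays with its SE (black) and between each M833 set and each WT set of 4 arrays (coloured, no error shown). All set pairs keep the sign of the whole for every probe, while the size runs from -0.88 to -0.14 for Mt1 and from 0.22 to 1.11 for Tfrc probe 208220.

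Fth1 ran against probes 208220 and 208872 of Tfrc across the arrays. With dye orientation removed, r over the 16 arrays was -0.92 with probe 208220 and -0.95 with probe 208872. Within the 8 WT arrays it was -0.92 and -0.95, where the arrays fell into the 2 sets described above, and within the 8 M833 arrays it was -0.19 and -0.17. Both metallothioneins were lower in M833 as Fth1 was, yet within cell types they ran against it, with r = -0.67 for Mt1 and r = -0.60 for Mt2 after cell type and dye orientation were removed. In WT the set with the higher Fth1 ratio had the lower Mt1 ratio, with Fth1 at -0.81 and Mt1 at -1.34 on replicates 1, 2, 5 and 6, and Fth1 at -1.07 and Mt1 at -0.98 on replicates 3, 4, 7 and 8. All these arrays share the reference RNA, and the correlations are descriptions.

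**Figure D3:**
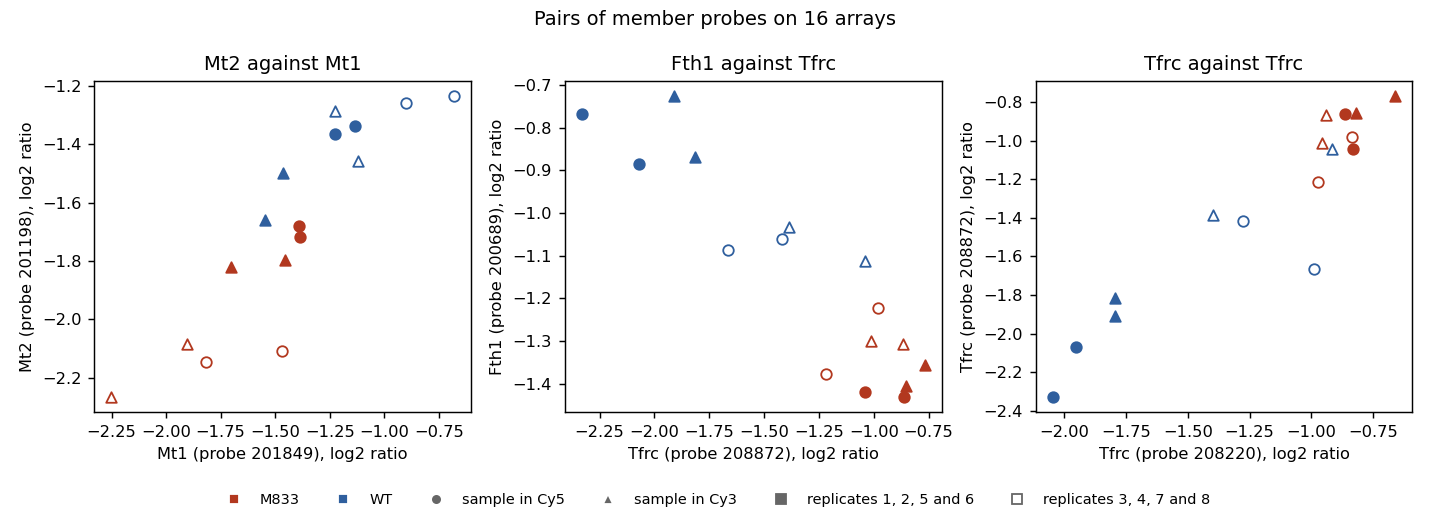
Log2 ratios of pairs of member probes on the 16 arrays, Mt2 against Mt1 (left), Fth1 against Tfrc probe 208872 (middle) and Tfrc probe 208872 against probe 208220 (right), in red for M833 and blue for WT, with circles for cells in Cy5, triangles for Cy3, and filled or open symbols for the sets of arrays. The WT arrays of replicates 1, 2, 5 and 6 sit at the high Fth1 and low Tfrc end, the M833 arrays at the other.

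Against the reference RNA, a comparison that the choice of genes did not use, 5 of the 6 probes were low. The mean of both cell types was -1.42 ± 0.06 for Mt1, which is 2.67-fold below the reference (adjusted p = 6.8e-13), and -1.67 ± 0.04 for Mt2, 3.18-fold below (SE, n = 16 arrays, limma). Fth1 was at -1.15 ± 0.03, and Tfrc was at -1.19 ± 0.08 on probe 208220 and -1.33 ± 0.07 on probe 208872, and the largest limma adjusted p of these 5 probes was 3.08e-10. Probe 205642 was above the reference, at 0.26 ± 0.06 (limma adjusted p = 0.000999). Such calls were common, with 38.6% of all probes called lower and 44.5% higher than the reference, but only 2.35% of probes had a lower mean than Mt2, 3.33% than Mt1, and 4.58% than Fth1. Should the deposited ratio run from reference to cells, these probes would stand among the highest instead, with the same shares above them. Every M833 minus WT difference given here would then change sign. On the Cy3 arrays alone probe 205642 was at -0.021 and not called (limma adjusted p = 0.777). The interaction of dye orientation with cell type was called for none of the 6 probes and for 0 of 15247 probes in limma, with 411 at an unadjusted p under 0.05 where 762 would be expected.

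Other genes of iron uptake, storage and sensing mostly did not pass the test. Of 16 measured genes 1 was lower in M833 and none was higher, where 25.9% of all features were called, and the list median was -0.04 against -0.03 over all features. The count depended on the processing, with 4 lower and 0 higher with log ratios scaled between arrays, 2 lower and 4 higher without WT replicates 3, 4, 7 and 8, and 4 lower and 1 higher without the other WT set. The gene that fell was Snx3, which encodes a sorting nexin needed to recycle the transferrin receptor, at -0.25 ± 0.05 (SE, n = 8 per cell type; limma adjusted p = 7e-04). The genes of the iron regulatory proteins, which act on ferritin and receptor RNA, were at -0.26 ± 0.17 for Aco1 (adjusted p = 0.272) and -0.02 ± 0.03 for Ireb2 (adjusted p = 0.727). Fbxl5, whose product marks Ireb2 protein for destruction when iron is plentiful, was at -0.12, and Ncoa4, the receptor that delivers ferritin to lysosomes, was at -0.10. The iron exporter gene Slc40a1 (ferroportin) was at -0.24 ± 0.24 and depended on the WT set, at 0.38 (called, adjusted p = 0.005) without replicates 1, 2, 5 and 6 and at -0.86 (called) without replicates 3, 4, 7 and 8. The importer genes Slc11a2, Slc39a8 and Slc39a14 were at 0.07, 0.14 and -0.13, the mitochondrial iron importer gene Slc25a37 at -0.03, and the iron chaperone genes Pcbp1 and Pcbp2 at -0.10 and -0.04. The ceruloplasmin gene Cp was at 0.11, and the secreted iron-binding genes Ltf and Lcn2 were at 0.32 and 0.37 with wide errors of 0.17 and 0.34. Scaling the log ratios put Slc25a37 at -0.43, Ncoa4 at -0.36 and Pcbp1 at -0.13, all called lower (limma adjusted p = 0.00268, 0.00425 and 0.03). Without WT replicates 3, 4, 7 and 8, Slc11a2 (0.19), Slc39a8 (0.28), Ltf (0.54) and Lcn2 (0.95) were called higher, and without WT replicates 1, 2, 5 and 6, Fbxl5 (-0.28), Ncoa4 (-0.28) and Slc39a14 (-0.22) were called lower.

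Genes of haem and iron-sulphur clusters differed in both directions, with 9 of 25 lower in M833, 3 higher and a median of -0.07, where 15.9% of all features were lower and 10% higher. With log ratios scaled between arrays 12 were lower and 1 higher, and with sets of arrays as a random block 2 were lower and 0 higher. Slc48a1, a haem transporter of lysosomal membranes, fell by 0.56 ± 0.07, and Hmox1, the enzyme that breaks haem down and frees its iron, fell by 0.55 ± 0.16 (SE, n = 8 per cell type). Isca1, of iron-sulphur cluster assembly, and Fech, which inserts iron into haem, fell by 0.42 and 0.32. Alas1, the first and rate-limiting enzyme of haem synthesis in most tissues, rose by 0.25 ± 0.07, the porphyrin transporter gene Abcb6 by 0.35 ± 0.09 and the mitochondrial chaperone gene Hspa9 by 0.14 ± 0.03. Adjusted p-values in limma for these 7 genes lay between 5.8e-05 for Slc48a1 and 0.0267 for Isca1. With sets of arrays as a random block, Slc48a1 alone among the 7 was called. Hmox1 rested on WT replicates 3, 4, 7 and 8, at -0.12 without them (adjusted p = 0.218) and at -0.98 without the other WT set, and Alas1, Isca1 and Fech were not called without WT replicates 1, 2, 5 and 6, at 0.08, -0.28 and -0.18. With log ratios scaled Fech was at -0.71, and Abcb6 at 0.23 and Alas1 at 0.16 were not called.

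Among zinc genes, 4 of 11 were lower in M833 and 2 higher, with a median of -0.10, where 15.9% of all features were lower and 10% higher. The zinc exporter gene Slc30a4, whose product moves zinc into vesicles, fell by 0.44 ± 0.04 (limma adjusted p = 3.83e-06), and the related genes Slc30a7 and Slc30a2 fell by 0.23 and 0.15. Mtf1, the zinc sensor that drives the metallothionein genes, fell by 0.17 ± 0.05 (adjusted p = 0.023), but its 2 probes were at -0.02 and -0.32. The zinc importer gene Slc39a4 rose by 0.15. Mtf2 rose by 0.23 ± 0.03, and despite its name it encodes a Polycomb-like protein of chromatin and not a zinc sensor. The other 5 genes did not pass the test, Slc30a3 (-0.19), Slc30a9 (-0.10), Slc39a10 (0.10), Slc30a5 (-0.03) and Slc39a9 (-0.01). Metallothionein genes Mt3 and Mt4 had no probe under these symbols. With sets of arrays as a random block Slc30a4 and Mtf2 were called and Slc30a7, Slc30a2, Mtf1 and Slc39a4 were not. The same genes, Slc30a7, Slc30a2, Mtf1 and Slc39a4, were not called without WT replicates 3, 4, 7 and 8. Slc30a2 lost its call in 18 of 29 alternative fits, 9 of them with a single array left out. With log ratios scaled Slc39a4 was at 0.04 and Slc30a7 at -0.18, neither of them called.

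Of 7 copper genes 3 were lower in M833 and none was higher, with a median of 0.02, where 15.9% of all features were lower and 10% higher. Ccs, the chaperone that loads copper onto superoxide dismutase, fell by 0.38 ± 0.05, and Slc31a2, a copper transporter of internal membranes, fell by 0.35 ± 0.03 (SE, n = 8 per cell type; limma adjusted p = 3.88e-05 and 1.76e-06). The copper exporter gene Atp7a fell by 0.19 ± 0.06 (adjusted p = 0.0287), a call lost with sets as a random block and without any of 4 single arrays. Together the 59 genes of these metal lists gave 17 lower and 5 higher, which is 37.3% called against 25.9% of all features, with a median of -0.07. The balance shifted with the settings, to 22 lower and 2 higher with log ratios scaled, 13 lower and 12 higher without WT replicates 3, 4, 7 and 8, and 6 lower and 1 higher with sets as a random block.

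**Figure D4:**
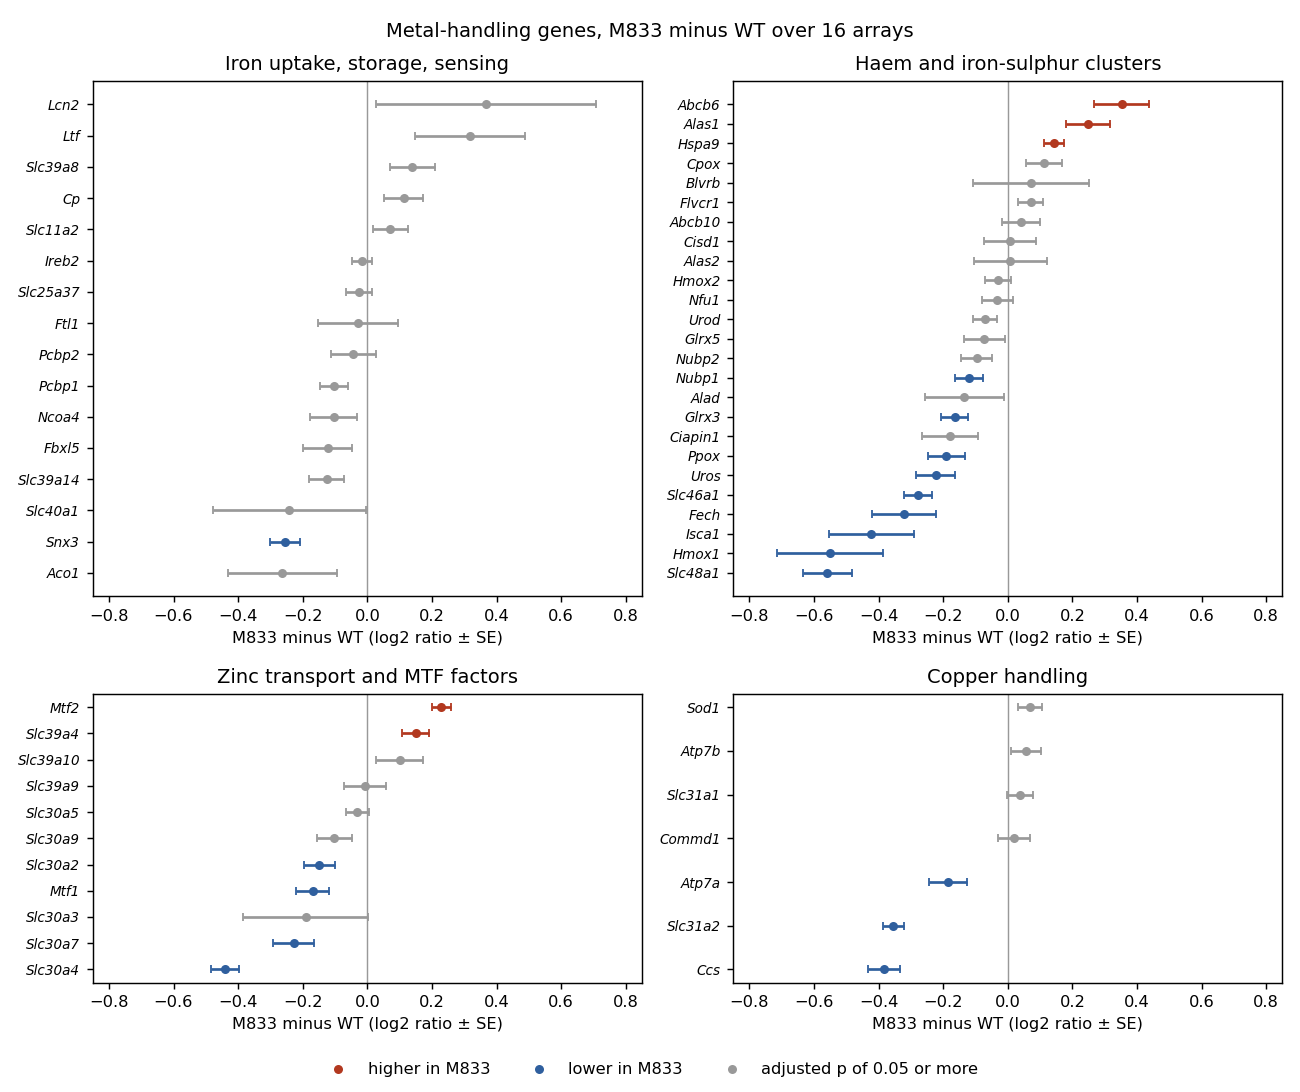
M833 minus WT log2 difference with its SE (horizontal axis) for each measured gene (vertical axis) of iron uptake and storage, haem and iron-sulphur clusters, zinc transport and copper handling, members left out. Genes called higher in M833 are red, genes called lower are blue and the rest grey; in the iron list Snx3 alone is called.

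Metallothionein genes also respond to glucocorticoids, and of 7 measured genes of that response 2 were lower in M833 and 1 was higher, with a median of -0.06. Over all features 15.9% were lower and 10% higher. The kinase gene Sgk1 fell by 0.46 ± 0.10 and the transcription factor gene Klf9 by 0.26 ± 0.07, while Nr3c1, the gene of the glucocorticoid receptor itself, rose by 0.13 ± 0.04 (SE, n = 8 per cell type; limma adjusted p between 0.00337 and 0.0249). Sgk1 was at -0.26 and not called without WT replicates 1, 2, 5 and 6, and Klf9 at -0.13 and Nr3c1 at 0.06 were not called without the other WT set. With sets as a random block Sgk1 was called, and Klf9 (adjusted p = 0.117) and Nr3c1 (adjusted p = 0.18) were not. Fkbp5, a common readout of that receptor, was at -0.03 (adjusted p = 0.747).

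Genes with the most similar profile were sought among the other 7110 named genes, by Pearson r over the 16 arrays with the mean of each dye orientation removed. For Fth1 these were Cyb5r3 (r = 0.99), Lpcat3 (0.98) and C1qtnf5 (0.98), which were lower in M833 by 0.55, 0.36 and 0.86 on the log2 scale. For Mt1 they were Map1lc3b (r = 0.94), Mtarc2 (0.94) and Pcyox1 (0.94), and for Mt2 they were Ube2l3 (0.95), Plekha1 (0.95) and Pomgnt2 (0.94). Tfrc probe 208220 was most like Mylpf (r = 0.98), Spire1 (0.97) and Amd2 (0.97), and probe 208872 most like Srpk1 (0.97), Slf2 (0.96) and Mrps18b (0.96), so that no gene stood among the nearest of both. Probe 205642 had less similar neighbours, Tdrd7 (r = 0.90), Glul (0.89) and Chmp1a (0.87). High r was not rare on arrays that fall into few sets, since 7.06% of the genes searched reached 0.8 with Fth1, 4.44% with Mt2, 3.63% with Mt1 and 0.45% with probe 205642. With probes 208220 and 208872 the shares were 4.23% and 4.32%.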

How the data were processed

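The deposited table gives, per the labels, log ratios of 16 two-colour arrays, read as log2 values already normalised by the authors with limma, per the submitters' processing notes; the sources used here do not give the background correction, normalisation method, filters or limma version. The scale was taken from the values, whose largest was 15.35, array medians lay between -0.02 and 0.07, and no sign was turned. Depth does not apply to arrays; their number limits the precision. Without channel intensities dim probes could not be filtered.

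Of 15247 probes 9600 had 1 symbol, 214 several and 5433 none. Of the first, 9492 matched RefSeq (GRCm38.p6) by Entrez number, with 0 symbols changed. Each probe was tested by itself for the members. For lists the probes of a gene were averaged, which gave 12761 features, 7114 of them named genes. Fits used limma 3.58.1 in R 4.3.3 (lmFit, eBayes), with terms for dye orientation and cell type over the 16 arrays, and Benjamini-Hochberg adjusted p under 0.05 was called over all probes or features. The fit was tested on simulated data. Promoter sequences are RefSeq's.

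Members and lists were chosen with earlier results of these data known. Named were all members, the 4 largest called genes per direction of each metal list, all measured iron uptake and zinc genes, up to 3 called genes of other lists, and the 3 most similar genes per probe. Vim, Pdgfrb, Dcn, Lum, Hbb-b1, Alb, Gata1, Tdo2, Ftl1 probes and Fkbp5 were named after their values were seen. As counts of calls between the cell types, epithelial genes gave 0 of 7 (limma; 3 at an unadjusted p under 0.05), hepatocyte genes 1 higher (Apob, 0.21) of 5 and fibroblast markers 5 lower of 8 (largest Col1a2, -0.87, Col3a1, -0.38, and Col1a1, -0.20). With log ratios scaled these became 2 lower, 3 lower and 5 lower, and with sets as a random block 0, 0 and 2 lower, without Apob and Col1a1. In the main fit 25.9% of all features were called, 15.9% lower and 10% higher.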

Additional observations from a re-analysis of the deposited data

How the results depend on the processing

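No paired analysis was possible because the labels give no replicate numbers. The number of arrays and their few sets limit what can be resolved, and no reading of dim spots was possible. In every alternative Mt1, Mt2 and Fth1 stayed lower in M833 and Tfrc probes 208220 and 208872 higher; leaving out each array in turn, the difference lay between -0.57 and -0.45 for Mt1, -0.60 and -0.53 for Mt2, -0.44 and -0.38 for Fth1, 0.58 and 0.75 for probe 208220, 0.68 and 0.84 for probe 208872 and -0.28 and -0.14 for probe 205642. With log ratios scaled between arrays the differences grew to -0.76 for Mt1, -0.85 for Mt2 and -0.62 for Fth1, and those of Tfrc probes 208220 and 208872 shrank to 0.44 and 0.51. Sets of arrays as a random block left the differences as they were and widened the SE. It was then 0.14 for Mt1, 0.10 for Mt2, 0.07 for Fth1 and 0.20, 0.18 and 0.16 for Tfrc probes 205642, 208220 and 208872. That fit used a single correlation within sets, 0.33, shared by all probes. Some members split more strongly, such as Mt2 in M833, with set means of -1.75 and -2.15 and SDs of 0.07 and 0.08. For such probes these SEs may be too small, and the same holds for calls made with sets as a random block. With 1 value per gene Tfrc was at 0.40, against -0.21 for probe 205642 alone, and its level against the reference at -0.75. On Cy3 arrays alone probe 205642 differed by 0.0085 and its level was -0.021. Leaving out WT replicates 1, 2, 5 and 6 gave -0.28 for Fth1, 0.28 for probe 208220, 0.43 for probe 208872 and 0.38 for Slc40a1; leaving out WT replicates 3, 4, 7 and 8 gave -0.54, 1.04 and 1.08 for the 3 probes. Leaving out M833 replicates 1, 2, 5 and 6, or 3, 4, 7 and 8, both tried after seeing the data, gave -0.77 and -0.37 for Mt2. The causes were not tested.

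Each fit made its own calls, and how many features or genes they share was not counted. Against 3301 features called with all arrays and the dye term, the totals were 2000 without a dye term, 835 on Cy5 arrays, 1100 on Cy3 arrays, 1465 with sets of arrays as a random block, 1685 without M833 replicates 1, 2, 5 and 6 and 1858 without M833 replicates 3, 4, 7 and 8 (fewer arrays in 4 of these fits), but 4328 without WT replicates 1, 2, 5 and 6, 4629 without WT replicates 3, 4, 7 and 8 and 3886 with array weights. Of the 59 metal genes, 22 were called with all arrays and the dye term and 13, 7, 9, 7, 11, 10, 27, 25 and 24 in the same order, and 11 without 3 M833 arrays of another slide number series. Centring each array on its median gave 1558 features higher and 1635 lower, against 1276 and 2025.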
